A study of Caenorhabditis elegans with 12 samples.

Results

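The genes described are those that encode the proteins of the cytosolic ribosome of the nematode Caenorhabditis elegans. They were chosen by WormBase symbol, as every gene whose symbol starts with rps- or rpl- and a number, and the rule found 78 of the 46778 genes listed in the count files. Of these, 31 rps genes encode proteins of the small subunit and 47 rpl genes encode proteins of the large subunit. The symbols rla-0, rla-1, rla-2, ubl-1 and ubq-2, which also encode subunit proteins, fall outside the rule and are described further on with the other genes of translation.

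The small ribosomal subunit holds the messenger RNA and checks each codon against a transfer RNA. The large subunit joins the amino acids at the peptidyl transferase centre and lets the new chain out through an exit tunnel. The proteins are made in the cytoplasm and meet ribosomal RNA in the nucleolus, and since every ribosome needs a full set, their transcripts are among the most abundant of a growing cell. In C. elegans, lower activity of this machinery and of the TOR and S6 kinase signalling that regulates it is known to lengthen life.

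The study compared whole animals of 2 genotypes at 2 adult ages by RNA sequencing, to follow how gene expression changes with age in animals with reduced insulin signalling. The 4 groups, with 3 biological repeats each, were daf-2(e1370) mutants (strain CF1041) at day 9 of adulthood, the same mutants at day 1, wild-type animals (strain N2) at day 9 and wild-type animals at day 1. The daf-2 gene encodes the insulin and IGF-1 receptor, whose activity the missense mutation e1370 reduces, and the level of the daf-2 transcript does not check such a genotype. All groups, wild type included, were synchronized, moved at the L4 or young adult stage to 50 µM FUdR, a nucleotide analog that blocks the production of progeny, fed E. coli OP50, and frozen whole; total RNA was made into unstranded TruSeq libraries.

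The 12 libraries held 20322128 to 47447136 counts assigned to genes, and replicates of 1 group differed from each other by far more than counting error. Markers of germline and oocytes, muscle, intestine, neurons and hypodermis, as a whole animal should have, were present in each group. Levels are given below as CPM, a gene's count per 1000000 counts of its library, after TMM scaling, which sets libraries level on the genes that change least, and as CPM per kilobase of exon where genes are compared with each other. A change is the log2 ratio of day 9 to day 1, or of daf-2 to wild type, and a gene is called where edgeR's quasi-likelihood test gave a Benjamini-Hochberg adjusted p under 0.05 over the 15523 genes tested. Since whole animals were sequenced, fewer cells of a type and less RNA per cell cannot be told apart.

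All 78 genes had reads, all 78 passed the filter on low counts, and all are annotated as protein coding. They are short genes, with 236 to 1456 bases of merged exon and a median of 532, against a median of 1168 over all protein-coding genes. The longest annotated protein of each has 22 to 401 residues, with a median of 148. Chromosome I carries 23 of them, chromosome III 18, chromosome IV 17, chromosome II 10, chromosome V 8 and the X chromosome 2, namely rpl-11.2 and rpl-25.1.

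The family was expressed at very high levels, with a few genes far below the rest. Its median over the 12 libraries was 2417 CPM per kilobase, against 7.78 CPM per kilobase over all tested genes with an annotated length. Among the 100 genes with the highest level per length 61 belonged to the family, and among the 200 highest 73 did. The highest small subunit gene was rps-23, whose protein sits in the decoding centre, at 4829 CPM per kilobase, and the highest large subunit gene was rpl-10, whose protein joins late in assembly, at 4563 CPM per kilobase. At the other end stood rpl-24.2 at 165 CPM per kilobase, rpl-41.1 at 191 CPM per kilobase, rpl-25.1 at 389 CPM per kilobase and rpl-42 at 0.329 CPM per kilobase.

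The gene rpl-42 was close to silent and is set apart in what follows. Its counts were 14, 10 and 6 reads in daf-2 animals at day 9 and 2, 0 and 2 reads in daf-2 animals at day 1. In wild type they were 15, 11 and 10 reads at day 9, against 0, 1 and 9 reads at day 1. It passed the filter through the day 9 libraries, where it is highest, so no test of its difference with age is given.

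The family took from 8.91% to 12.5% of all counts in a library. Its share was 10.25%, 10.3% and 10.1% in daf-2 animals at day 9, 10.49%, 10.49% and 8.91% in daf-2 animals at day 1. It was 9.99%, 10.4% and 9.41% in wild type at day 9, and 10.3%, 12.5% and 11.3% in wild type at day 1. The means were 10.2% ± 0.10, 9.96% ± 0.91, 9.94% ± 0.51 and 11.4% ± 1.10 in that order of groups (SD, n = 3 each). Replicate 3 of daf-2 at day 1 was the lowest of all libraries and replicate 2 of wild type at day 1 the highest, and the day 9 and day 1 values overlapped in both genotypes. The 95% Wilson interval of a share, which covers counting error only, was at most 0.0144 percentage points to either side.

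These raw shares depend on what else fills a library. The 6 vitellogenin genes, which encode yolk proteins, took 4.31% ± 1.70 of the counts in daf-2 at day 9 and 14.1% ± 2.89 in daf-2 at day 1. They took 6.51% ± 0.58 in wild type at day 9 and 11.4% ± 1.36 in wild type at day 1 (SD, n = 3 each). With vitellogenin counts left out of the total, the family's share was 10.7% ± 0.085 in daf-2 at day 9 and 11.6% ± 1.42 in daf-2 at day 1. It was 10.6% ± 0.48 in wild type at day 9 and 12.8% ± 1.06 in wild type at day 1. In daf-2 animals the mean share at day 9 was thus slightly above that at day 1 when yolk genes were counted, by 0.04 on the log2 scale, and below it when they were not. With yolk genes counted this direction rested on replicate 3 of day 1: without it the log2 ratio was -0.04. In wild type the log2 ratio of day 9 to day 1 was -0.19 with yolk genes counted, and -0.27 to -0.12 over 8 alternatives.

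**Figure D1:**
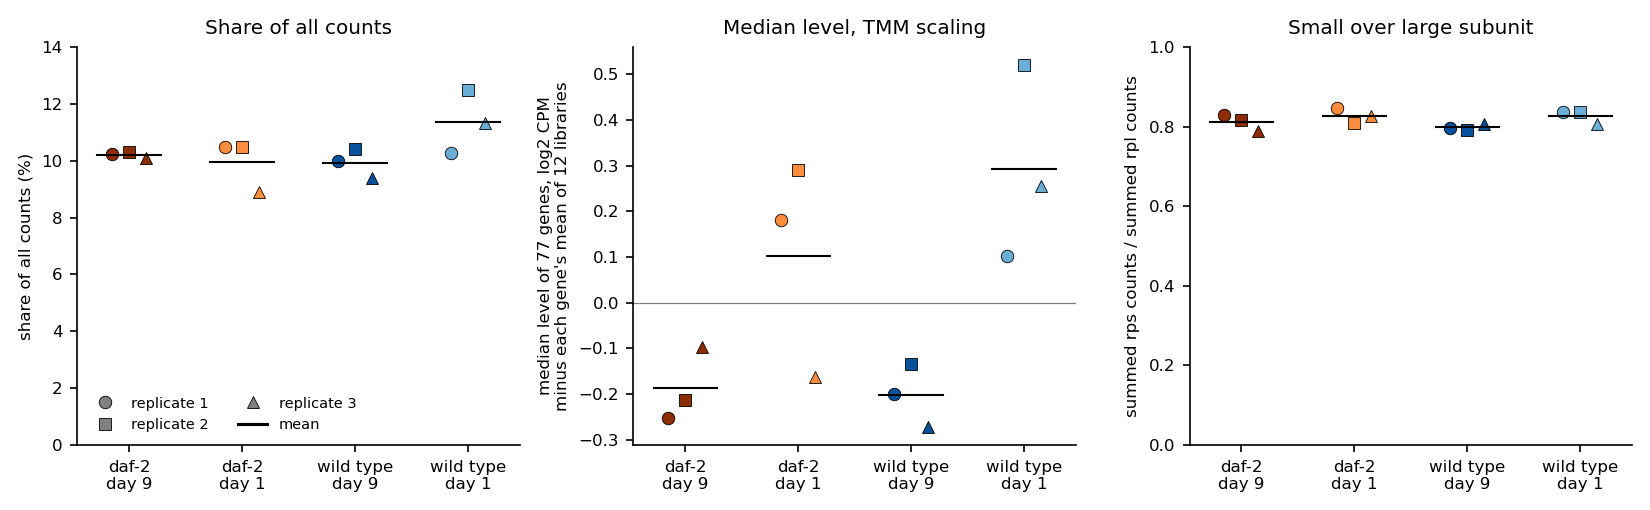
The 3 panels are views of the family in each of the 12 libraries, by group, with one symbol per replicate and a line at the group mean: the share of all counts in percent, the median TMM-scaled level of 77 genes (without rpl-42) as log2 CPM minus each gene's mean over the 12 libraries, and the summed rps counts over the summed rpl counts. The day 9 libraries lie between -0.27 and -0.10 in the middle panel, and replicate 3 of daf-2 at day 1, at -0.16, is the only day 1 library below 0.

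In wild-type animals, ribosomal protein genes were lower at day 9 than at day 1 with TMM scaling. With scaling on a set of reference genes the same median lay slightly above 0. Without 1 of these reference genes, csq-1, which is described further on, it was -0.35. With TMM, 52 of the 78 genes fell and 0 rose, where 25.6% of all tested genes were called lower and 31.2% were called higher. At an unadjusted p under 0.05, in either direction, there were 59 genes of the family and 9619 of all 15523 tested genes. DESeq2 called 60 lower and 0 higher, where it called 23.08% of all genes lower and 25.74% higher. The median log2 change was -0.50 over the family, against 0.09 over all tested genes. Without replicate 2 of wild type at day 1, which had the highest family level of all libraries, the count called lower was 34. In that fit 22.79% of all tested genes were called lower.

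The largest falls of the small subunit were those of rps-2, rps-9 and rps-20. The proteins of rps-2 and rps-9 line the channel through which messenger RNA enters, and that of rps-20 lies in the head of the subunit. The gene rps-2 (WBGene00004471, chromosome IV, 7925298 to 7926391, minus strand, WBcel235) had 767, 769 and 730 CPM in wild type at day 9 and 1791, 2442 and 1666 CPM in wild type at day 1. Both groups were well apart, with the day 9 replicates close together and replicate 2 high at day 1. The log2 change was -1.38 ± 0.15 (SE, n = 3 per group; edgeR adjusted p 1.84e-05).

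Next came rps-9 (WBGene00004478, chromosome II, 11125371 to 11126362, minus strand), with 1134, 1182 and 1061 CPM in wild type at day 9 and 2481, 3232 and 2426 CPM in wild type at day 1. Its log2 change was -1.27 ± 0.16 (edgeR adjusted p 4.75e-05), again with no overlap. The gene rps-20 (WBGene00004489, chromosome I, 14468332 to 14469103, minus strand) had 847, 893 and 805 CPM in wild type at day 9 and 1699, 2143 and 1328 CPM in wild type at day 1. It fell by 1.02 ± 0.18 on the log2 scale (edgeR adjusted p 0.000408), and its day 1 libraries were spread more widely than its day 9 libraries.

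On the large subunit rpl-7A, rpl-3 and rpl-41.2 fell most. The gene rpl-7A encodes a protein that binds ribosomal RNA and carries 2 small nucleolar RNAs in its introns (WBGene00004419, chromosome IV, 4389143 to 4390590, minus strand). It had 461, 360 and 434 CPM in wild type at day 9 and 1145, 1375 and 905 CPM in wild type at day 1, and it fell by 1.45 ± 0.17 on the log2 scale (edgeR adjusted p 2.43e-05). The ages were far apart, with replicate 2 the lowest library at day 9 and the highest at day 1.

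The protein of rpl-3 reaches close to the peptidyl transferase centre, and the gene has 5 annotated transcripts (WBGene00004414, chromosome III, 3867854 to 3869587, plus strand). Its levels were 1510, 1440 and 1389 CPM in wild type at day 9 and 3526, 4513 and 2872 CPM in wild type at day 1, a log2 change of -1.33 ± 0.17 (edgeR adjusted p 3.99e-05). The gene rpl-41.2 encodes a 22-residue protein that lies between the subunits (WBGene00023068, chromosome I, 4790292 to 4790642, plus strand). It had 529, 648 and 458 CPM in wild type at day 9 and 1087, 1384 and 851 CPM in wild type at day 1, and it fell by 1.02 ± 0.21 (edgeR adjusted p 0.00145), a call lost with reference genes.

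The falls were uneven across the family. The lower and upper quartiles of the log2 change were -0.69 and -0.36, and 26 genes did not pass the test. The smallest differences of the small subunit were those of rps-27 and rps-29, both encoding small zinc-binding proteins, and of rps-21. The gene rps-27 had 625, 655 and 612 CPM in wild type at day 9 and 532, 742 and 735 CPM in wild type at day 1, overlapping groups with a log2 difference of -0.09 ± 0.15 (edgeR adjusted p 0.641). The log2 difference was -0.16 for rps-29 and -0.18 for rps-21, neither called. On the large subunit rpl-11.2 at 0.18 and rpl-24.2 at 0.15 had positive log2 differences that were not called.

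In daf-2 animals the family was also lower at day 9 with TMM scaling, and with library totals or reference genes in place of TMM its median lay above 0. With the reference genes without csq-1 its median was -0.34. With TMM, 26 genes fell and 1 rose, where 21.5% of all tested genes were called lower and 21.9% higher. There were 32 genes of the family at an unadjusted p under 0.05 in either direction, and 8028 of all 15523 tested genes. DESeq2 called 28 lower and 1 higher, where it called 18.32% of all genes lower and 19.97% higher. The median log2 change was -0.27, or -0.44 without replicate 3 of daf-2 at day 1, against 0.01 over all tested genes. The count called lower rests on single libraries: it was 39 without replicate 3 of daf-2 at day 1, whose family level was the lowest of the day 1 libraries, 14 without replicate 2 of daf-2 at day 1 and 15 without replicate 2 of daf-2 at day 9. Of all tested genes, 21.45%, 18.29% and 16.64% were called lower in those fits.

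The 26 genes that fell in daf-2 animals were all among the 52 that fell in wild type, so that 26 were called in wild type alone and 25 were called in neither genotype. The leading genes were again rps-2, rps-9 and rps-20 of the small subunit and rpl-41.2, rpl-3 and rpl-7A of the large subunit. In daf-2 animals rps-2 had 815, 777 and 784 CPM at day 9, against 1652, 1837 and 1426 CPM at day 1, a log2 change of -1.05 ± 0.15 (edgeR adjusted p 0.000202). For rpl-7A the levels were 458, 491 and 447 CPM at day 9, against 784, 1033 and 799 CPM at day 1, a log2 change of -0.91 ± 0.17 (edgeR adjusted p 0.00102). In both genes the 2 ages were far apart, and replicate 3 at day 1, low for the family as a whole, still lay above every day 9 library.

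The gene rpl-3 had 1398, 1443 and 1567 CPM in daf-2 animals at day 9 and 2723, 3108 and 2553 CPM at day 1, and fell by 0.93 ± 0.16 on the log2 scale (edgeR adjusted p 0.000794). The levels of rps-9 were 1245, 1155 and 1300 CPM at day 9, against 2550, 2535 and 1848 CPM at day 1, a log2 change of -0.91 ± 0.16 (edgeR adjusted p 0.000799). The gene rpl-41.2 had 640, 560 and 583 CPM at day 9, against 1479, 1165 and 898 CPM at day 1, and fell by 0.99 ± 0.21 (edgeR adjusted p 0.00256). Their ages did not overlap, and replicate 3 was the lowest day 1 library in each.

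The one gene that rose in daf-2 animals was rpl-24.2, a homolog of yeast Rlp24 and human RSL24D1, which act in the assembly of the large subunit and leave before it is finished. It had 116, 120 and 118 CPM in daf-2 at day 9 and 92.1, 93.5 and 75.7 CPM in daf-2 at day 1, with no overlap, and its log2 change was 0.44 ± 0.10 (edgeR adjusted p 0.00423). In wild type its levels were 94.0, 102 and 88.1 CPM at day 9, against 80.0, 92.7 and 83.0 CPM at day 1, and the log2 difference of 0.15 ± 0.10 was not called (edgeR adjusted p 0.205, and 7.15e-05 to 0.51 over 18 alternatives); it was called higher there with upper-quartile scaling, library totals and both reference-gene scalings. The difference between the genotypes in that change, 0.28 on the log2 scale, was not called either.

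**Figure D2:**
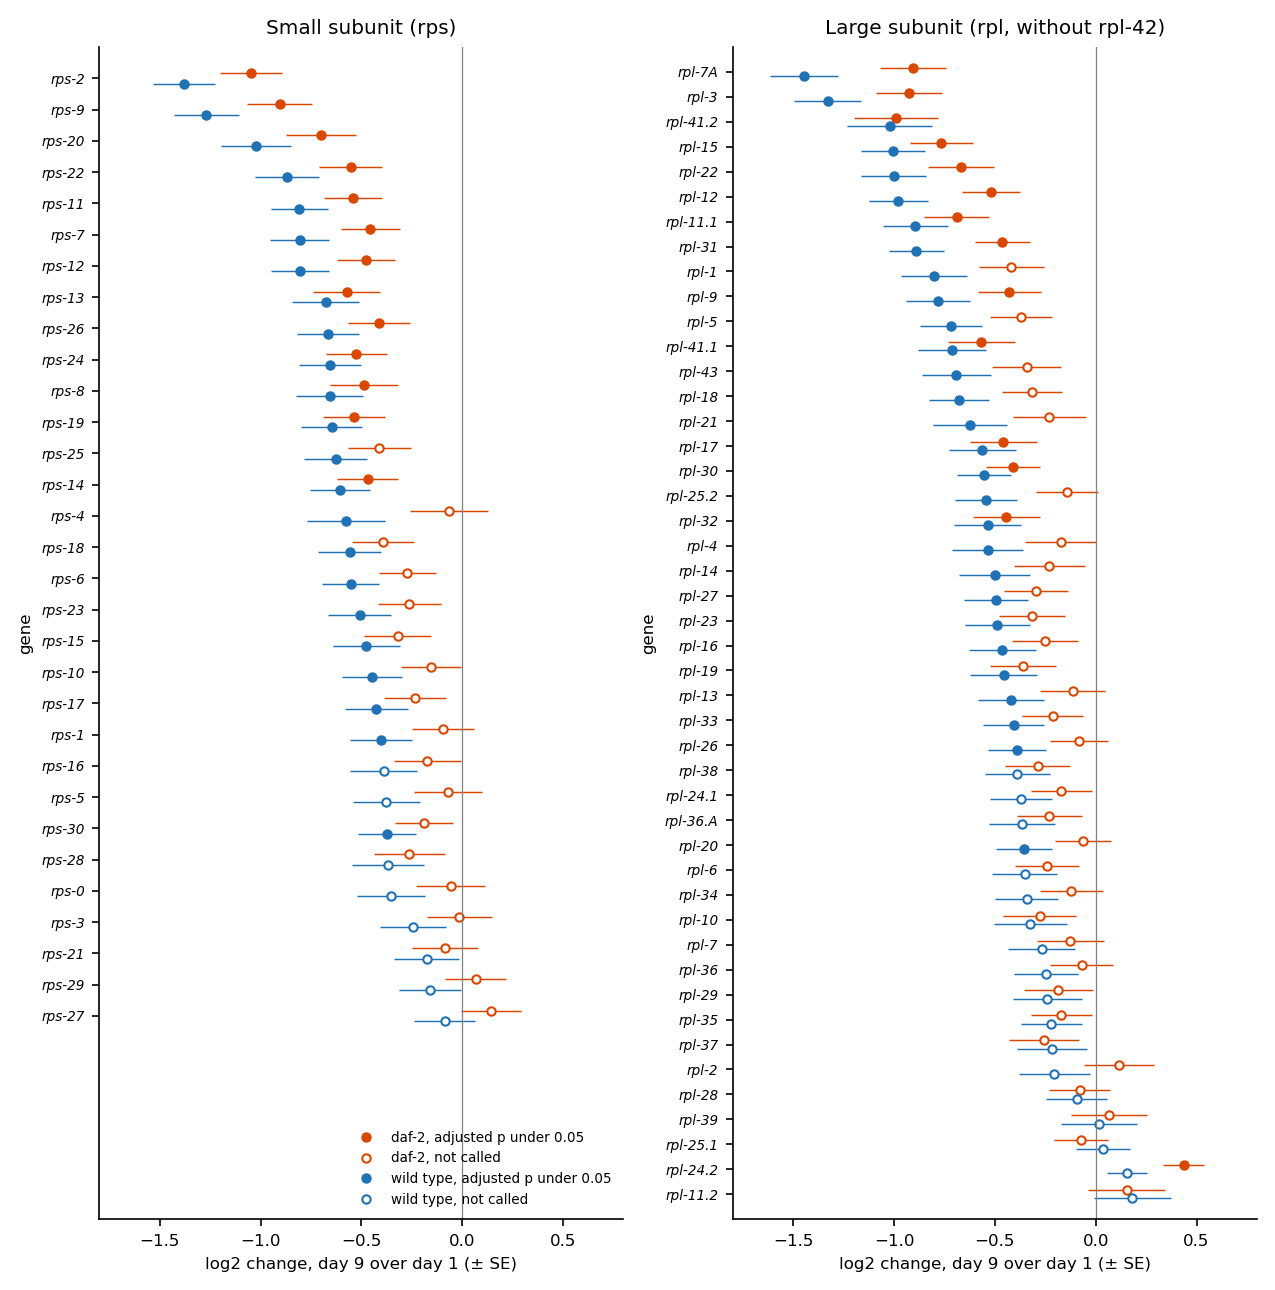
The log2 change of each gene at day 9 over day 1 with TMM scaling, with its standard error, for the 31 small subunit genes and 46 large subunit genes (without rpl-42), ordered by the change in wild type; filled points passed an adjusted p of 0.05 and open points did not. Most points lie left of 0 with this scaling, though not with scaling on reference genes that include csq-1. In wild type rps-2 at -1.38 and rpl-7A at -1.45 lead. The only filled point to the right is rpl-24.2 in daf-2, at 0.44.

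Across 77 genes (without rpl-42), the change with age in daf-2 and the change with age in wild type ran in nearly the same order, with a Pearson correlation of 0.92 and a Spearman correlation of 0.89. The 2 changes share no library, but the genes are not independent of each other, and the value is a description.

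Whether the change differed between genotypes was tested directly as the interaction, which is the log2 change of daf-2 less the change of wild type. The estimate was above 0 for 75 of the 78 genes with TMM scaling, with a median of 0.22 against -0.05 over all tested genes, but a scaling on reference genes without csq-1 gave a median of 0.01. No gene of the family was called, with edgeR or with DESeq2, where 4.72% of all tested genes were called lower and 0.573% higher. At an unadjusted p under 0.05 there were 3 genes with edgeR, beside 3691 of all 15523 tested genes, and 5 with DESeq2. The largest estimates were those of rpl-7A at 0.54 ± 0.23 (edgeR adjusted p 0.184), rps-4 at 0.51 ± 0.27 (edgeR adjusted p 0.277) and rpl-12, whose protein forms the base of the stalk, at 0.46 ± 0.20 (edgeR adjusted p 0.194). The 3 genes below 0 were rpl-25.1 at -0.11, rpl-37 at -0.04 and rpl-11.2 at -0.03.

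The median of 0.22 also turned on single libraries of day 1. It was 0.10 without replicate 2 of wild type at day 1 and 0.11 without replicate 3 of daf-2 at day 1, and no gene was called in either case.

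At day 1 the family tended to lie lower in daf-2 than in wild type, yet no single gene passed the test. With TMM scaling 74 of the 78 log2 differences were negative, and the median of -0.22 compares with 0.04 over all tested genes. That median was -0.12 without replicate 3 of daf-2 at day 1 and -0.09 without replicate 2 of wild type at day 1, with 0 genes called in either case. edgeR called 0 of the 78 genes, where 5.06% of all tested genes were called lower and 10.3% higher. An unadjusted p under 0.05 was found for 10 genes of the family and for 5126 of all 15523 tested genes. DESeq2 called 7 lower, namely rpl-31, rpl-1, rpl-12, rps-11, rps-22, rpl-3 and rpl-26, where it called 10.42% of all genes lower. Leaving out replicate 2 of daf-2 at day 1 gave 5 genes called lower by edgeR, where 2.97% of all tested genes were. Leaving out replicate 1 of wild type gave 2, where 7.27% of all tested genes were called lower. Leaving out replicate 3 of wild type gave 1, where 3.67% were.

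The gene nearest to a call was rpl-31, whose protein lies close to the mouth of the exit tunnel. It had 547, 725 and 579 CPM in daf-2 at day 1 against 694, 937 and 810 CPM in wild type at day 1, so the groups overlapped by 1 library. The log2 difference was -0.40 ± 0.14 (edgeR adjusted p 0.0645, and 0.0186 to 0.232 over 18 alternatives). For rpl-1, whose protein forms the L1 stalk, the levels were 840, 1238 and 923 CPM in daf-2 against 1221, 1601 and 1211 CPM in wild type, a log2 difference of -0.43 ± 0.16 (edgeR adjusted p 0.0894). The levels of rps-4 were 1554, 2325 and 1924 CPM in daf-2 against 2399, 3073 and 2287 CPM in wild type, also overlapping by 1 library, with a log2 difference of -0.42 ± 0.19 (edgeR adjusted p 0.154). In each of these genes replicate 2 was the highest library of its group in both genotypes. No gene of the family had all 3 daf-2 libraries below all 3 wild-type libraries at day 1. The share of all tested genes that did was not counted, so nothing is read from that count.

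At day 9 the genotypes lay together. The median log2 difference of daf-2 to wild type was 0.02, against 0.01 over all tested genes, and scaling moved it between -0.09 and 0.04. Of the 78 genes, edgeR called 0, where 6.26% of all tested genes were called lower and 4.54% higher, and DESeq2 called 0. An unadjusted p under 0.05 was found for 3929 of all 15523 tested genes and for 1 gene of the family. That gene was rpl-24.2, with a log2 difference of 0.31 ± 0.10 and with all 3 daf-2 libraries above all 3 wild-type libraries (edgeR adjusted p 0.0662, and 0.0266 to 0.212 over 19 alternatives). A fit that paired libraries of the same replicate number called it, with a log2 difference of 0.32 and an edgeR adjusted p of 0.0381. With the day 9 libraries fitted alone and paired, it was again the 1 gene called, where 13.86% of all genes tested there were called lower and 9.47% higher. The levels of rps-2, by comparison, were 815, 777 and 784 CPM in daf-2 against 767, 769 and 730 CPM in wild type, a log2 difference of 0.07.

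The direction of the change with age depended on the library scaling, and 7 scalings were compared. In daf-2 animals the median of the family was -0.27 with TMM, -0.26 with the RLE size factors of DESeq2, -0.14 with upper-quartile scaling, 0.09 with library totals and 0.19 with reference genes. In wild type the medians were -0.50 with TMM, -0.54 with RLE, -0.32 with upper-quartile scaling, -0.13 with library totals and 0.05 with reference genes. The counts moved with them: with reference genes 6 genes were called lower and 19 higher in daf-2, and 10 lower and 10 higher in wild type. With that scaling 9.4% of all tested genes were called lower and 48.16% higher in daf-2, and 8.62% lower and 56.59% higher in wild type.

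A scaling moves all genes together. Relative to TMM, library totals shifted every log2 change with age up by 0.35 in daf-2 and 0.36 in wild type, and reference genes by 0.46 in daf-2 and 0.54 in wild type. Measured against the median of all tested genes, the family stood at -0.28 to -0.27 in daf-2 and -0.60 to -0.58 in wild type under all 7 scalings. This near-constant distance follows from the shift of all genes together and is not independent support, while the sign of the family's own median depended on the scaling.

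The reference-gene scaling used 6 genes common in worm quantitative PCR, and 1 of them, csq-1, moved far with age. This gene encodes calsequestrin, a calcium-binding protein of muscle, and its log2 change with TMM scaling was -3.06 ± 0.17 in daf-2 and -2.55 ± 0.17 in wild type. Without csq-1 the other 5 reference genes gave family medians of -0.34 in daf-2 and -0.35 in wild type, with 34 and 38 genes called lower and 1 higher in each. Of all tested genes, 24.58% were called lower and 18.66% higher in daf-2 with that scaling, and 20.1% lower and 35.45% higher in wild type. TMM computed without the family and the vitellogenins gave -0.27 in daf-2 and -0.52 in wild type, close to TMM on all genes.

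**Figure D3:**
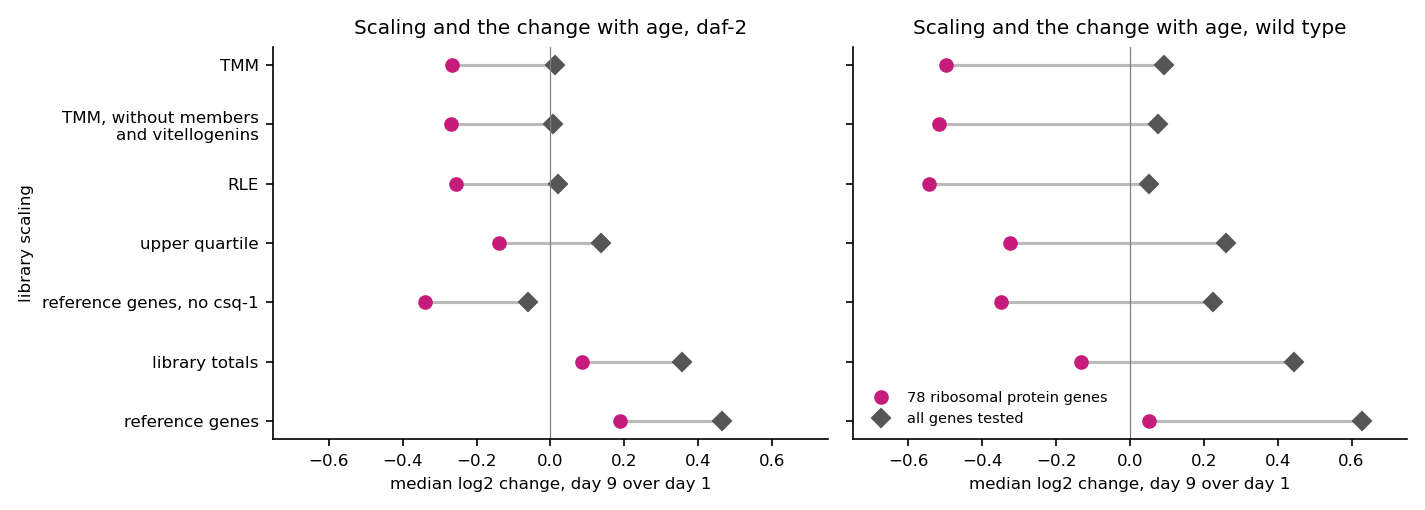
The median log2 change at day 9 over day 1 of the 78 ribosomal protein genes (circles) and of all tested genes (diamonds) under 7 library scalings, listed from top to bottom, in daf-2 and in wild type. The circles lie right of 0 under library totals and reference genes in daf-2 and under reference genes in wild type, while the distance between circle and diamond stays at 0.27 to 0.28 in daf-2 and 0.58 to 0.60 in wild type.

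Small and large subunit genes moved together, with a slight tilt in wild type that depended on the genes and the measure used. With TMM, 13 of 31 rps genes and 13 of 47 rpl genes fell in daf-2, with median log2 changes of -0.32 and -0.25, though both medians lay above 0 with library totals or reference genes. In wild type 23 of 31 rps genes and 29 of 47 rpl genes fell with TMM, with medians of -0.56 and -0.46. With reference genes the wild-type medians were -0.01 and 0.08. Without csq-1 the reference genes gave rps and rpl medians of -0.392 and -0.323 in daf-2, and of -0.412 and -0.315 in wild type. Summed rps counts over summed rpl counts, a ratio within a library, were 0.829, 0.817 and 0.790 in daf-2 at day 9 and 0.847, 0.808 and 0.826 in daf-2 at day 1, which overlap. In wild type they were 0.798, 0.792 and 0.806 at day 9, against 0.836, 0.836 and 0.807 at day 1, with all day 9 libraries just below all day 1 libraries. Without the genes that share a number with another member, the wild-type ratio was 1.024, 1.022 and 1.036 at day 9. At day 1 it was 1.07, 1.065 and 1.027, so the ages overlapped. With counts per length of exon it was 0.801, 0.784 and 0.804 at day 9. At day 1 that ratio was 0.839, 0.840 and 0.817, with no overlap.

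The same tilt was larger by a measure that does not let the most abundant genes weigh most. The median log2 CPM of the rps genes minus that of the rpl genes was 0.43, 0.28 and 0.37 in daf-2 at day 9 and 0.46, 0.49 and 0.38 in daf-2 at day 1, again overlapping. In wild type it was 0.24, 0.25 and 0.26 at day 9, against 0.46, 0.49 and 0.41 at day 1, a clear gap with the day 9 replicates close together. These values compare CPM that are not set per length, and the medians of the changes of single genes, given above, differed by less.

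Symbols that share a subunit and number form 6 pairs, and the ratio of the pair within a library is free of scaling. In 3 pairs, numbered 11, 25 and 41, both genes encode forms of the same protein; rpl-24.1 and rpl-24.2 are relatives with separate roles, and rpl-7 and rpl-7A, and rpl-36 and rpl-36.A, are different proteins with similar names. The change of each ratio with age was tested over both genotypes by an exact two-sided permutation test that kept the genotypes apart, with 400 arrangements, a smallest possible p of 0.005, and Benjamini-Hochberg adjustment over the 6 pairs. The sources used here do not say how a read matching both copies was counted, which bears on the pairs 11, 25 and 41.

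The clearest divergence of a copy pair was that of rpl-11.1 on chromosome V (3585312 to 3586064) and rpl-11.2 on the X chromosome (2241738 to 2242618), both encoding a 196-residue protein that sits with 5S ribosomal RNA. The copy rpl-11.1 had 1271, 1453 and 1370 CPM in daf-2 at day 9 and 2307, 2500 and 1800 CPM in daf-2 at day 1. It had 1534, 1511 and 1346 CPM in wild type at day 9 and 2243, 3144 and 2784 CPM in wild type at day 1. With TMM scaling it fell by 0.69 ± 0.16 in daf-2 and by 0.90 ± 0.16 in wild type on the log2 scale (edgeR adjusted p 0.00469 and 0.000617), and its call in daf-2 was lost with library totals and with reference genes. The copy rpl-11.2 had 776, 678 and 1039 CPM in daf-2 at day 9 and 888, 808 and 546 CPM in daf-2 at day 1. Its levels were 764, 851 and 855 CPM in wild type at day 9 and 692, 818 and 666 CPM in wild type at day 1. Its ages overlapped in both genotypes, and its log2 differences of 0.15 and 0.18 were not called.

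The ratio of rpl-11.1 to rpl-11.2 was accordingly 1.70 ± 0.42 in daf-2 at day 9 and 3.00 ± 0.36 in daf-2 at day 1. It was 1.79 ± 0.22 in wild type at day 9 and 3.75 ± 0.47 in wild type at day 1 (SD, n = 3 each). Every day 9 library was below every day 1 library of its genotype. The mean log2 change of the ratio was -0.96 (exact permutation p = 0.005, adjusted p = 0.006), lower in each genotype, with -0.84 in daf-2 and -1.07 in wild type.

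The second pair with a copy on the X chromosome is rpl-25.2 (chromosome I, 8329062 to 8329647) and rpl-25.1 (X, 4715178 to 4715796), whose proteins of 146 and 147 residues are homologs of human RPL23A at the tunnel exit. The autosomal copy rpl-25.2 fell in wild type with TMM scaling, by 0.55 ± 0.16 on the log2 scale (edgeR adjusted p 0.010), but had a log2 change of 0.003 there with reference genes. The X-linked copy rpl-25.1 had 199, 174 and 221 CPM in daf-2 at day 9 and 221, 233 and 169 CPM in daf-2 at day 1. In wild type it had 164, 204 and 183 CPM at day 9, against 175, 190 and 173 CPM at day 1, and the ages overlap in both genotypes. The ratio of rpl-25.2 to rpl-25.1 was 4.87 ± 0.51 in daf-2 at day 9 and 5.11 ± 0.72 in daf-2 at day 1. It was 5.02 ± 0.71 in wild type at day 9 and 7.44 ± 1.21 in wild type at day 1. Its ages overlapped in daf-2 and did not in wild type, and over both genotypes the change missed the threshold (exact permutation p = 0.065, adjusted p = 0.065). Leaving out replicate 2 of daf-2 at day 9 gave an exact permutation p of 0.04, and leaving out replicate 1 of daf-2 at day 1 gave 0.02.

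**Figure D4:**
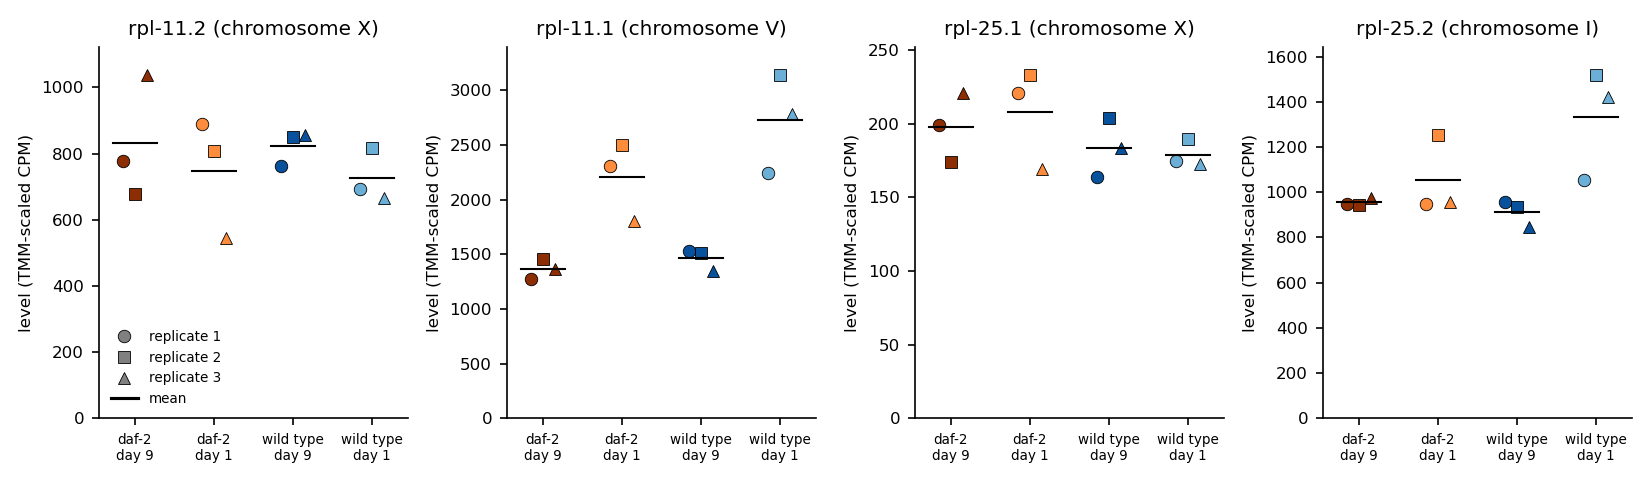
TMM-scaled levels in CPM of the copy pairs rpl-11.2 and rpl-11.1, and rpl-25.1 and rpl-25.2, in each of the 12 libraries by group, with one symbol per replicate and a line at the mean; each panel has its own axis from 0. The day 9 and day 1 libraries of rpl-11.1 are separate in both genotypes, while those of the X-linked copies rpl-11.2 and rpl-25.1 overlap.

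The other pairs changed their ratio too. With TMM scaling, 25.6% of all tested genes were called lower and 31.2% higher with age in wild type. In daf-2 these shares were 21.5% lower and 21.9% higher, so ratios of unrelated genes can change as well. How often they do was not counted. The ratio of rpl-24.1, which encodes a mature subunit protein that bridges to the small subunit, to rpl-24.2 was 12.3 ± 1.13 in daf-2 at day 9 and 18.6 ± 1.28 in daf-2 at day 1. It was 14.9 ± 0.93 in wild type at day 9 and 21.4 ± 1.31 in wild type at day 1 (exact permutation p = 0.005, adjusted p = 0.006). The genes rpl-41.1 and rpl-41.2 are neighbours on chromosome I and encode near-identical 22-residue proteins, so that their reads may have been divided between them. The ratio of rpl-41.2 to rpl-41.1 was 12.9 ± 0.66 in daf-2 at day 9 and 17.3 ± 2.20 in daf-2 at day 1. It was 10.4 ± 1.17 in wild type at day 9 and 12.8 ± 0.91 in wild type at day 1 (exact permutation p = 0.005, adjusted p = 0.006).

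The ratio of rpl-7A to rpl-7 was 0.168 ± 0.021 in daf-2 at day 9 and 0.288 ± 0.036 in daf-2 at day 1. It was 0.142 ± 0.021 in wild type at day 9 and 0.321 ± 0.051 in wild type at day 1 (exact permutation p = 0.005, adjusted p = 0.006). That of rpl-36 to rpl-36.A was higher at day 9, by little, with 0.756 ± 0.067 in daf-2 at day 9 and 0.673 ± 0.0019 in daf-2 at day 1. It was 0.740 ± 0.013 in wild type at day 9 and 0.679 ± 0.031 in wild type at day 1 (exact permutation p = 0.005, adjusted p = 0.006). In these 4 ratios, as in that of the rpl-11 copies, the 2 ages did not overlap in either genotype. The share of arbitrary gene pairs that do the same was not counted. Nothing particular to pairs with a shared number, the rpl-11 copies included, is therefore read from these tests.

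Initiation factor genes were mostly lower at day 9 in both genotypes with TMM scaling, and with reference genes 7 were called lower in daf-2 and 17 in wild type. Of all tested genes, 21.5% were called lower and 21.9% higher in daf-2 with TMM, and 25.6% lower and 31.2% higher in wild type. These shares are the background of this and the following lists. With reference genes they were 9.4% lower and 48.16% higher in daf-2, and 8.62% lower and 56.59% higher in wild type. Here and in the following lists the reference genes include csq-1, which itself moved far with age. Of 31 initiation factor genes, 24 fell and 1 rose in daf-2 with TMM, and 26 fell and 1 rose in wild type. The medians of -0.43 in daf-2 and -0.81 in wild type lay below those of the ribosomal protein genes. In daf-2 the leading genes were eif-3.H at -1.03 ± 0.11 and eif-3.L at -0.95 ± 0.11, subunits of the eIF3 complex that brings messenger RNA to the small subunit (edgeR adjusted p 1.77e-05 and 4.43e-05). In wild type they were inf-1, the eIF4A helicase that unwinds messenger RNA, at -1.59 ± 0.16 and eif-3.H at -1.31 ± 0.11 (edgeR adjusted p 1.04e-05 and 2.22e-06).

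Of the 6 genes for subunit and ribosome-bound proteins outside the symbol rule, 2 fell in daf-2 and 4 in wild type with TMM scaling, and with reference genes 0 were called lower and 2 higher in daf-2, and 1 lower and 1 higher in wild type. The count of 2 was 4 without replicate 3 of daf-2 at day 1 and 1 without any other daf-2 library. The gene ubl-1, which encodes a ubiquitin-like protein fused to the small subunit protein RPS27A, averaged 528 ± 65 CPM in daf-2 at day 9 and 800 ± 164 CPM in daf-2 at day 1. It averaged 494 ± 29 CPM in wild type at day 9 and 1057 ± 145 CPM in wild type at day 1 (SD, n = 3 each). The gene rack-1, for a scaffold protein on the small subunit, fell by 0.44 ± 0.16 on the log2 scale in daf-2 and by 0.83 ± 0.16 in wild type (edgeR adjusted p 0.0424 and 0.00107). The call of rack-1 in daf-2 was lost without replicate 1 or 2 of daf-2 at day 1 and without any 1 of the day 9 replicates, and with reference genes its log2 change there was 0.02 and its call in wild type was lost. The gene rla-0, for the stalk protein P0, stood out at 5800 ± 710 CPM in daf-2 at day 9 and 4199 ± 1095 CPM in daf-2 at day 1. It had 5652 ± 80 CPM in wild type at day 9 and 5376 ± 937 CPM in wild type at day 1, and was not called in either genotype.

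Among 8 elongation factor genes 1 fell in daf-2 and 4 in wild type with TMM scaling, and with reference genes 0 were called lower and 3 higher in daf-2, and 2 lower and 3 higher in wild type. In wild type they were led by eef-1A.1, which delivers transfer RNA to the ribosome, with 7046 ± 471 CPM at day 9, against 14448 ± 3665 CPM at day 1 and a log2 change of -1.04 ± 0.20 (edgeR adjusted p 0.000947), and by iff-1, an eIF5A homolog, at -0.85 ± 0.15 (edgeR adjusted p 0.000484). The 1 gene of daf-2 was eef-1B.2 at -0.37 ± 0.11 (edgeR adjusted p 0.0207); it was not called without replicate 2 of daf-2 at day 1 or without replicate 1 or 2 of daf-2 at day 9, its log2 change with reference genes was 0.09, and without replicate 3 of daf-2 at day 1 the count was 2.

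Among 31 genes of ribosome assembly, ribosomal RNA processing and RNA polymerase I, 10 fell and 4 rose in daf-2, and 21 fell and 4 rose in wild type, with TMM scaling, and with reference genes 1 was called lower and 15 higher in daf-2, and 2 lower and 8 higher in wild type. The count of 10 was 6 without replicate 2 of daf-2 at day 1. The count of 4 higher was 2 without replicate 3 of daf-2 at day 1 or replicate 2 of daf-2 at day 9, and in wild type 2 without replicate 1 or 2 of day 9. Both genotypes were led by ruvb-1, an ATPase of several assembly complexes, at -0.77 ± 0.10 in daf-2 and -1.22 ± 0.11 in wild type (edgeR adjusted p 0.000113 and 3.07e-06). Second in daf-2 was rbd-1, which acts in ribosomal RNA processing, at -0.68 ± 0.14 (edgeR adjusted p 0.00161; not called with library totals or reference genes), and second in wild type was rpoa-2, a subunit of RNA polymerase I, at -0.84 ± 0.12 (edgeR adjusted p 8.58e-05).

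The 14 genes of TOR and S6 kinase signalling had medians near 0, at -0.04 in daf-2 and -0.06 in wild type with TMM scaling, and with reference genes 11 were called higher in daf-2 and 12 in wild type. With reference genes 48.16% of all tested genes were called higher in daf-2 and 56.59% in wild type. With TMM, 21.5% of all tested genes were called lower and 21.9% higher in daf-2. In wild type 25.6% were called lower and 31.2% higher with TMM, and nothing particular to the list is read from its counts. In daf-2, 0 fell and 4 rose, led by 2 genes of TOR complex 2, rict-1 at 0.78 ± 0.11 and sinh-1 at 0.40 ± 0.12 (edgeR adjusted p 0.000145 and 0.0158). The call of sinh-1 was lost without replicate 1 of daf-2 at day 1 or replicate 3 of daf-2 at day 9, and the count of 4 was 1 or 2 without replicate 1 or 3 of daf-2 at day 1 or replicate 2 or 3 of daf-2 at day 9. In wild type 4 fell and 2 rose, and the 4 were led by larp-1, a binder of ribosomal protein messenger RNA, at -0.63 ± 0.14 and rsks-1, the S6 kinase gene, at -0.61 ± 0.13 (edgeR adjusted p 0.00235 and 0.00212), neither of them called with library totals or reference genes. The count of 2 higher in wild type was 1 without replicate 2 or 3 of wild type at day 1 or replicate 1 or 3 of wild type at day 9.

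Genes for the separate ribosome of mitochondria, 69 in all, fell in a larger share than the cytosolic family with TMM scaling: 58 fell and 1 rose in daf-2, and 60 fell and 1 rose in wild type, with medians of -0.63 and -0.74. The largest fall in both was that of mrpl-12, at -1.34 ± 0.12 in daf-2 and -1.69 ± 0.12 in wild type (edgeR adjusted p 5.55e-06 and 8.74e-07). With reference genes 21 were called lower in daf-2 and 27 in wild type. The difference between the 2 families was not tested.

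**Figure D5:**
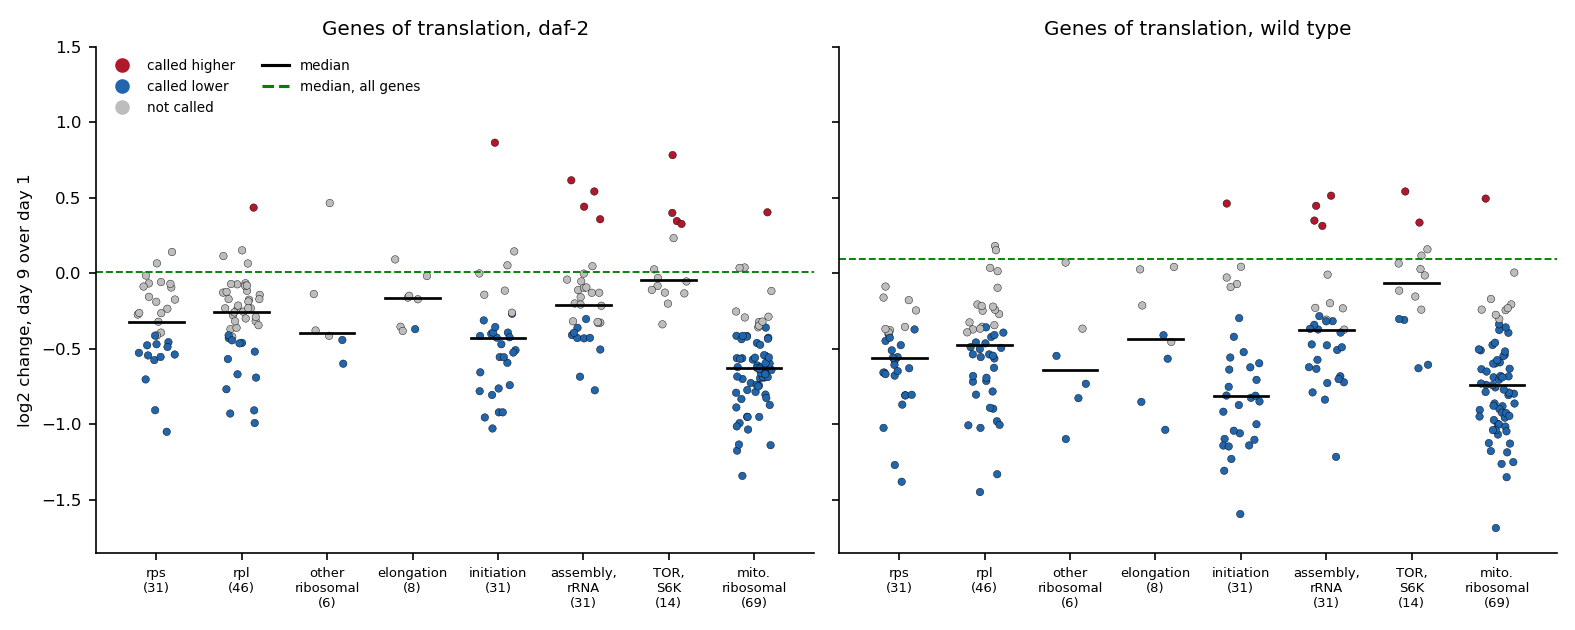
The log2 change at day 9 over day 1 with TMM scaling of each gene of the small subunit, the large subunit (without rpl-42) and 6 lists of other translation genes, in daf-2 and in wild type, with colour for the call, a bar at each list's median and a dashed line at the median of all tested genes. With this scaling most points of the initiation and mitochondrial ribosomal lists lie below 0 (medians -0.43 and -0.63 in daf-2, -0.81 and -0.74 in wild type), while TOR and S6 kinase genes centre near 0.

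Calls of tissue markers with TMM scaling stand beside 21.5% of all tested genes called lower and 21.9% higher with age in daf-2. In wild type these shares were 25.6% lower and 31.2% higher. Of 18 germline and oocyte markers, 3 were called lower and 2 higher in daf-2 at day 9, neither above those shares. In wild type at day 9, 10 of these markers were called lower and 1 higher. Their summed level ran from 11745 to 14283 CPM in daf-2 at day 9 and from 9218 to 15872 CPM in daf-2 at day 1. It ran from 12291 to 14264 CPM in wild type at day 9 and 15829 to 20033 CPM in wild type at day 1, and no marker of the 18 was at 0 in any library. At day 1, 5 of the 18 were called lower in daf-2 than in wild type, where 5.06% of all tested genes were. All 18 log2 differences were negative. The part of germline content in the levels of the ribosomal protein genes was not tested.

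Of 10 body wall muscle markers 9 fell with age in each genotype, and their sum ran from 442 to 787 CPM in daf-2 at day 9 and 3232 to 5192 CPM in daf-2 at day 1. It ran from 598 to 670 CPM in wild type at day 9 and 2160 to 3566 CPM in wild type at day 1. Of 8 hypodermal markers tested, 4 fell and 1 rose in daf-2, and 5 fell and 1 rose in wild type. Their sum ran from 260.5 to 688 CPM in daf-2 at day 9 and 3567 to 6849 CPM in daf-2 at day 1, and from 384 to 488 CPM in wild type at day 9 and 5474 to 7373 CPM in wild type at day 1. Of 7 pharyngeal markers tested, 2 fell in each genotype, and their sum averaged 44.2 CPM in daf-2 at day 9 and 296 CPM in daf-2 at day 1, and 44.3 CPM in wild type at day 9 and 212 CPM in wild type at day 1. Of 9 intestinal markers 6 fell and 1 rose in daf-2, and 4 fell and 2 rose in wild type. Of 10 neuronal markers 1 rose in daf-2 and 5 in wild type, and of 10 sperm markers 4 rose in daf-2 and 6 in wild type. The pharyngeal counts in both genotypes and the neuronal count in daf-2 lay near or below the shares of all tested genes. Nothing is read from those counts. The part of these tissues in the levels of the ribosomal protein genes was not tested either.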

How the data were processed

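RNA from 12 whole-animal samples in 4 groups of 3 was sequenced. The authors deposited whole-number counts per gene for each library. STAR 2.7.0e, RSEM 1.3.1, DESeq2 1.22.2 and the builds WBcel235 and ce11 are named in the submitters' processing notes, without their roles or the treatment of reads shared by near-identical genes. The libraries were unstranded, so reads of the 12 ribosomal protein genes that overlap another coding gene cannot be told apart from those of that gene. Per the labels, repeats were biological, and counting error was small beside their spread.

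The test was edgeR's quasi-likelihood test (version 4.0.16, R 4.3.3; filterByExpr with a minimum count of 10, TMM scaling, glmQLFit, glmQLFTest). One fit of 4 group means took all 12 libraries, with Benjamini-Hochberg adjustment over 15523 genes; SE is the log2 change divided by the root of F. Symbols and exon lengths came from Ensembl release 115, and of 186 listed symbols 174 matched. Ratios of gene pairs were tested by exact permutation in Python 3.11.15 with scipy 1.17.1. Alternatives were 6 other scalings, DESeq2 1.42.0, no filter, a stricter filter with a minimum count of 50, only the libraries compared, a replicate block, an adjusted p of 0.01 and each library left out. The script was tested on simulated data. Full statistics go to the 3 largest and 3 smallest changes of each subunit in each comparison, to gene pairs, to the most expressed gene of each subunit and to the 2 largest called changes of each list. The members, lists and tests were chosen with earlier results of these data known. Same-numbered daf-2 and wild-type libraries of day 9 deviated together (correlations 0.36, 0.14 and 0.58), so the replicate block, an alternative to the unpaired fit used throughout, is given beside the day 9 result; in each other comparison at least 1 correlation was under 0.1, and numbers were taken as labels only. Protein and promoter sequences were not used here.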

Additional observations from a re-analysis of the deposited data

Results flagged for a closer look

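Of the 31 initiation factor genes 2 were called higher in the interaction of genotype and age, and 0 were in the other 5 lists, of 6, 8, 14, 31 and 69 genes; of all tested genes 0.573% were called higher and 4.72% lower. The log2 change of eif-3.B, which encodes a core subunit of eIF3, was -0.36 in daf-2 and -1.06 in wild type, a difference of 0.703 ± 0.161 (SE; edgeR adjusted p 0.0266, and 0.00196 to 0.0791 over 23 alternatives). Its levels were 216, 244 and 225 CPM in daf-2 at day 9 and 278, 307 and 290 CPM in daf-2 at day 1, against 189, 173 and 176 CPM in wild type at day 9 and 374, 430 and 317 CPM in wild type at day 1. The ages did not overlap in either genotype. The call was lost without replicate 1 of daf-2 at day 1, without replicate 2 of daf-2 at day 9 and without replicate 2 or 3 of wild type at day 9.

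The log2 change of eif-3.F, another eIF3 subunit gene, was -0.47 in daf-2 and -1.14 in wild type, a difference of 0.669 ± 0.176 (SE; edgeR adjusted p 0.0465, and 0.0114 to 0.12 over 23 alternatives). The call was lost in 11 of the 12 fits that left out 1 library and with both reference-gene scalings. The median of this difference over all tested genes was -0.05, and it was not subtracted from either value.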

How the results depend on the processing

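Calls of the leading genes rps-2, rps-9, rpl-3 and rpl-7A with age kept their direction and side of the threshold under all 18 alternatives in each genotype. Counts did not. In wild type with day 9 over day 1, the count lower was 34 with upper-quartile scaling, 21 with library totals, 10 with reference genes and 31 at an adjusted p of 0.01. Of all tested genes, 19.11%, 12.16%, 8.62% and 18.58% were called lower there. The count higher was 1, 3 and 10 under those scalings and 1 with reference genes without csq-1. Of all tested genes, 37.68%, 45.49%, 56.59% and 35.45% were called higher there. The family median was -0.324 with upper-quartile scaling, -0.133 with library totals, 0.051 with reference genes and -0.349 with reference genes without csq-1. That of the large subunit was 0.084 with reference genes. In daf-2 the count lower was 6 with library totals, 6 with reference genes and 10 at an adjusted p of 0.01. Of all tested genes, 11.11%, 9.4% and 14.27% were called lower there. The count higher was 7 with library totals and 19 with reference genes, where 40.2% and 48.16% of all tested genes were called higher. The medians with library totals and reference genes were 0.085 and 0.187 over the family. They were 0.036 and 0.136 for the small subunit, and 0.103 and 0.204 for the large subunit. With reference genes without csq-1 the family median in daf-2 was -0.339.

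At day 1 the count lower in daf-2 was 1, rpl-31, with RLE, upper-quartile, library totals, reference genes and TMM without members and vitellogenins, and 7 with DESeq2. Of all tested genes, 4.10% to 7.77% were called lower with those scalings and 10.42% with DESeq2. At day 9 the count higher in daf-2 was 1, rpl-24.2, with library totals, only the libraries compared, the replicate block and the block on day 9 libraries alone. The replicate block gave 25 lower and 1 higher in daf-2, 53 lower in wild type and 0 calls at day 1 and in the interaction, so it changed no other count by over 1.5 times. With reference genes without csq-1 the median was -0.092 at day 9 and 0.005 in the interaction, where the large subunit had -0.013. The log2 ratio of the share of counts in daf-2 was 0.04, but -0.115 without vitellogenins and -0.099 without the 20 most counted other genes. The log2 ratio of small to large subunit, by difference of medians, was -0.085 in daf-2, -0.197 in wild type and 0.106 between genotypes at day 9.

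With reference genes the log2 change in daf-2 was 0.381 for rpl-25.1, 0.318 for rpl-25.2, 0.384 for rpl-36, 0.442 for rps-3, 0.089 for eef-1B.2 and 0.022 for rack-1, and in wild type 0.003 for rpl-25.2, 0.371 for rps-21, 0.038 for rps-23, 0.460 for rps-27 and 0.387 for rps-29; rps-3 in daf-2 had 0.340 with library totals. Leaving out 1 library at a time, the count lower ranged from 14 to 39 in daf-2, from 34 to 57 in wild type and from 0 to 5 between genotypes at day 1, and the count higher in wild type from 0 to 1 (rpl-42, which passed the filter through day 9). Of all tested genes, those fits called 16.64% to 21.45% lower in daf-2, 21.09% to 23.73% in wild type and 1.5% to 7.27% at day 1. Why these values moved was not tested beyond the shift each scaling gives to all genes. Apart from rpl-42, counting depth did not limit the values.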

Other observations

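Ribosomal protein genes differed in their annotated gene structure, and these splits were chosen after the values were seen. The 10 genes with 3 or more annotated transcripts, which include rpl-3, had median log2 changes with age of -0.45 in daf-2 (6 called lower) and -0.73 in wild type (9 called lower). The 50 genes with 1 annotated transcript had medians of -0.25 in daf-2 (14 lower, 1 higher) and -0.47 in wild type (31 lower). Of all tested genes, 21.5% were called lower and 21.9% higher in daf-2, and 25.6% lower and 31.2% higher in wild type. Counts per gene do not separate transcripts. These are changes with TMM scaling, and all shift together with the scaling.

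Genes with small nucleolar RNAs in their introns stood close to the others. The 13 hosts had medians of -0.17 in daf-2 and -0.51 in wild type, and the 64 genes without such an RNA had medians of -0.29 in daf-2 and -0.50 in wild type. The 2 genes on the X chromosome, rpl-11.2 and rpl-25.1, had a median log2 difference of 0.04 in daf-2 and 0.11 in wild type. For 75 autosomal genes (without rpl-42) the medians were -0.28 in daf-2 and -0.51 in wild type. None of the 75 reached the wild-type value of rpl-11.2, 0.18. The autosomal gene rpl-24.2 lay above rpl-25.1 in wild type, at 0.15 against 0.04. In daf-2 rpl-24.2, at 0.44, lay above rpl-11.2 at 0.15 and rpl-25.1 at -0.07. The 8 genes on chromosome V had medians of -0.13 in daf-2 and -0.29 in wild type. On the other autosomes the medians ran from -0.39 to -0.25 in daf-2 and from -0.63 to -0.43 in wild type. On chromosome V 1 gene was called lower in daf-2 and 2 in wild type. These counts lay near or below the 21.5% and 25.6% of all tested genes called lower, and nothing is read from them. Changes of all tested genes by chromosome were not compared.

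Across 77 genes, longer exon length went with a larger fall (Pearson correlation of log2 change and exon length -0.21 in daf-2 and -0.37 in wild type, Spearman -0.11 and -0.28), while level per length did not (Pearson 0.002 in daf-2 and 0.046 in wild type). All of these points share the same libraries.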
